A study of Mus musculus with 60 samples.

Results

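Solute carriers are the membrane proteins named Slc in the mouse, and 144 of their genes are described here in Kupffer cells, the macrophages that reside in the liver sinusoids. The genes were chosen by their counts: of 373 genes in the table whose symbol begins with Slc and a number, 144 had a sum of 200 counts or more over 15 mice. Another 222 had a smaller sum, and 75 of those had no count in any library. A further 7 (Slc40a1, Slc11a1, Slc48a1, Slc7a11, Slc30a1, Slc39a14 and Slc2a1) were left out by name. Sums ran from 206 to 14078 counts, with a median of 631.5. Just inside the limit were Slc25a36 with 206, Slc26a11 with 211 and Slc2a4rg-ps with 214 counts, and just outside were Slc35a2 with 197, Slc25a16 with 196 and Slc35e2 with 195. The choice used the total over all groups, so a gene could enter through the group in which it is high: 14 members would be under 200 counts without the oil mice, 26 without the wild-type CCl4 mice (Slc35g1 and Slc19a2 among them) and 36 without the Trem1-deficient mice (Slc1a3, Slc36a1, Slc37a2, Slc38a9 and Slc39a13 among them). All 144 passed the filter on low counts, in a table of 24411 genes of which 9001 passed. They took 0.551 to 0.889% of the gene counts of a library.

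The mice were C57BL/6J, 8 weeks old and male per the labels, 5 in each of 3 groups. One group was wild type and given corn oil, another was wild type and given CCl4 (carbon tetrachloride, which is toxic to hepatocytes once metabolised), and the other was Trem1-deficient and given CCl4. Livers were taken 12 h after 1 injection, of 2 µl per g diluted 1:4 in oil for CCl4. No Trem1-deficient mice given oil were analysed here, so an effect of the genotype alone cannot be told apart from its effect after CCl4. Trem1 is a surface receptor through which myeloid cells are activated. The cells were isolated by collagenase digestion, a density gradient, removal of CD11b-binding cells and selection for F4/80 with magnetic beads. RNA was read as 3' tags, in which a transcript gives reads from its 3' end, so that levels of different genes can be set side by side without a correction for length. Library totals were 892498 to 1922569 counts with oil, 812320 to 1912946 in wild-type mice with CCl4 and 1250547 to 2593004 in Trem1-deficient mice, and 3 counts in a library correspond to 1.16 to 3.69 CPM (counts scaled to a library total of 1000000).

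Solute carriers move small molecules across the plasma membrane or the membranes of organelles, either down a gradient or coupled to sodium, protons or another solute. Families are numbered by sequence, and a family often shares a substrate class: amino acids, sugars, nucleosides, metals, bile acids. The Slc25 family sits mainly in the inner mitochondrial membrane, and the Slc35 family mainly in the Golgi and endoplasmic reticulum. Hepatocytes carry a large set for uptake of bile acids, fatty acids and amino acids, while macrophages carry lysosomal and endosomal carriers that export the products of digestion. Amino acid carriers such as Slc38a2, Slc7a1, Slc7a5 and Slc3a2 are known targets of ATF4, a transcription factor induced by amino acid shortage and other stress.

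By family number, 25 members were mitochondrial carriers, 22 belonged to amino acid families, 20 to families for zinc, copper and other metals, 15 to the Slc35 family, 15 to ion exchangers and cotransporters, and 11 to sugar families. Smaller groups were bile acid, organic ion and fatty acid families with 9 members, nucleoside, choline and vitamin families with 8, the Slc16 family with 7, peptide and lysosomal families with 5, and Slc20a1 and Slc33a1 with 1 each. The symbols of 5 members are shared in name only, because the genes are not carriers: Slc9a3r1 and Slc9a3r2 encode scaffold proteins that bind an exchanger, Slc4a1ap an adaptor protein, Slc7a6os is named for its place opposite Slc7a6, and Slc2a4rg-ps is named as a pseudogene.

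The wild-type CCl4 preparations differed from the other 10 in their cell markers. The summed level of 18 Kupffer cell markers was 34009 to 82599 CPM with oil, 7116 to 22449 CPM in wild-type mice with CCl4 and 63313 to 72643 CPM in Trem1-deficient mice. The sum of 20 hepatocyte markers was 3689 to 16338, 11674 to 41886 and 2093 to 19529 CPM in the same order. Sums of 13 monocyte markers were 694 to 1382, 2615 to 5964 and 1246 to 2390 CPM. Neutrophil markers were at 230 to 1592, 1189 to 11797 and 417 to 3809 CPM. Cholangiocyte markers were at 7.81 ± 4.45, 124 ± 115 and 30.9 ± 7.81 CPM (mean ± SD), with 1 of 5 markers at 0 in each group. Sinusoidal endothelial markers were at 1991 ± 997, 1542 ± 351 and 3707 ± 1912 CPM. The part of any of these cells in the results that follow was not tested. An alternative fit took the hepatocyte marker sum as a covariate. That sum was mostly higher in the wild-type CCl4 mice, so the fit cannot separate hepatocytes from the group. No listed marker of hepatocytes, Kupffer cells or monocytes was at 0 throughout a group. Trem1 itself was at 54.0 ± 31.4 CPM with oil, 348 ± 167 CPM after CCl4 and 4.29 ± 4.09 CPM in the Trem1-deficient mice (mean ± SD, n = 5 each). The index numbers of the libraries fall into 2 series: series A holds the 5 oil mice with numbers 1 and 2 of the Trem1-deficient group, and series B holds the 5 wild-type CCl4 mice with numbers 3, 4 and 5 of it. Y-linked counts were 0 to 7 in series A and 134 to 425 in series B. Counts of Xist, which female cells express, were 72 to 1552 in series A and 1 to 31 in series B. Yet all mice are labelled male. CCl4 in wild-type mice cannot be told apart from this series or from the difference in these sex-linked counts. In RNA from a whole preparation, fewer cells of a type and less RNA per cell cannot be told apart either.

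Of the members, Slc15a3, a proton-coupled carrier of peptides and histidine in lysosomes, led with 769 ± 358 CPM with oil, 312 ± 274 in wild-type mice with CCl4 and 653 ± 103 in Trem1-deficient mice (mean ± SD of TMM-scaled CPM, n = 5, as for all levels that follow). Slc39a7, which releases zinc from the endoplasmic reticulum, followed with 198 ± 39.5, 417 ± 198 and 367 ± 67.5 CPM. Slc25a3, the mitochondrial phosphate carrier, was at 363 ± 203, 327 ± 203 and 267 ± 41.1 CPM. Slc38a10 and Slc3a2, the heavy chain that several amino acid carriers need at the cell surface, lay close together. Slc38a10 was at 200 ± 44.7, 253 ± 91.3 and 244 ± 47.8 CPM. Slc3a2 was at 231 ± 19.9, 263 ± 61.1 and 189 ± 34.1 CPM. Next came Slc16a6, Slc25a51 (a mitochondrial NAD carrier), Slc43a2 (a carrier of large neutral amino acids), Slc38a2, Slc15a4 (a lysosomal histidine carrier), Slc20a1 (a phosphate importer) and Slc7a2 (a carrier of cationic amino acids). Each mean over the 15 mice differed from the next in this order by less than the larger SD of the pair. Of the 144 members, 65 had counts in all 15 libraries and 7 had none in 5 libraries or more.

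**Figure D1:**
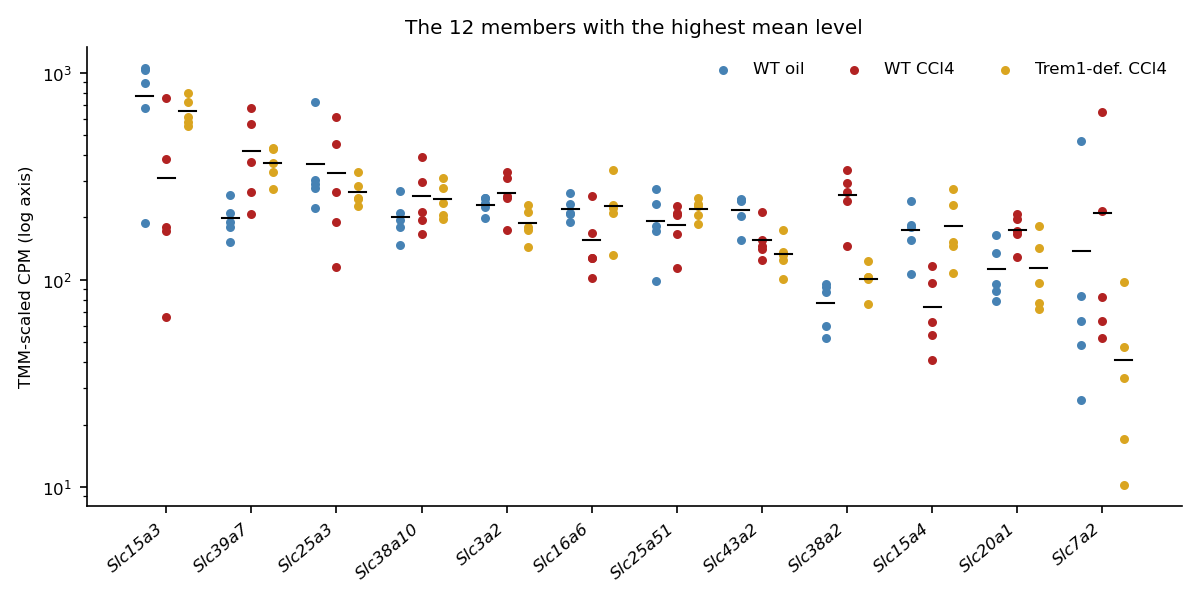
Levels in TMM-scaled CPM on a log axis of the 12 members with the highest mean level, 1 point per mouse and a line at the group mean (WT, wild type; 5 mice per group). Slc15a3 spans 66.4 to 1056 CPM, while Slc3a2 stays between 144 and 331 CPM in all 15 mice.

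The first comparison asked which carriers changed after CCl4 in wild-type mice. Amino acid carriers were among the 6 members that rose (Slc38a2 and Slc7a1), with the fatty acid and bile acid enzyme Slc27a5, the zinc carrier Slc39a7, the mitochondrial iron importer Slc25a37 and Slc35g1. A single member, the mitochondrial carrier Slc25a45, fell. These are calls at a Benjamini-Hochberg adjusted p under 0.05 over 9001 genes in edgeR's quasi-likelihood test on all 15 mice. Of all genes tested, 3.04% were called higher and 2.09% lower, so 6 and 1 of 144 members are near the background and say nothing particular about carriers. Slc35g1, 1 of the 6, is a member only through the counts of the wild-type CCl4 mice, so the choice by counts favoured its call. The members' median log2 fold change was -0.03, against 0.06 for all genes, and 30 members had an unadjusted p under 0.05 in edgeR, against 19% of all genes. With oil mouse 2 and wild-type CCl4 mouse 5 left out, 3 members were called higher and 5 lower, and only Slc38a2 and Slc25a45 were shared with the 7. Leaving out wild-type CCl4 mouse 1, the one with the highest Kupffer cell marker sum of its group, gave 13 calls, and leaving out oil mouse 3 gave 1.

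Slc38a2 (chr15, 96687392 to 96699730, minus strand), a sodium-coupled importer of glutamine and other small neutral amino acids, showed the clearest separation. Its level was 95.8, 52.6, 60.0, 92.2 and 87.4 CPM in oil mice 1 to 5. After CCl4 it was 146, 293, 265, 241 and 338 CPM in wild-type mice and 103, 123, 76.1, 103 and 101 CPM in Trem1-deficient mice. All 5 wild-type CCl4 mice lay above all 10 others, and the oil and Trem1-deficient groups overlapped. The log2 fold change against oil was 1.72 ± 0.38 (SE), with an edgeR adjusted p of 0.00518. It passed in each of the 10 fits that left out 1 mouse, with log2 fold changes from 1.57 to 1.87. With the index series as a term the value was 2.00 with an adjusted p of 0.356, and with the hepatocyte marker sum as a covariate 1.76 with an adjusted p of 0.108, both in edgeR. For any gene the series term is estimated only within the Trem1-deficient group, the only group found in both series. It therefore cannot separate CCl4 from the series in wild-type mice.

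The window around the start of Slc38a2 is shown because it was called in 17 of 19 fits of this comparison, and that of Slc16a3, the lactate exporter, because hypoxia is known to induce it and its values came near the threshold in both comparisons with the wild-type CCl4 mice. Both are 300 bases in RefSeq on GRCm38.p6, from 250 bases before the start to 50 after, Slc38a2 at chr15:96699679-96699978 on the minus strand and Slc16a3 at chr11:120948817-120949116 on the plus strand. Capitals mark matches to ACGTG, the core that hypoxia-inducible factors bind.
Slc38a2: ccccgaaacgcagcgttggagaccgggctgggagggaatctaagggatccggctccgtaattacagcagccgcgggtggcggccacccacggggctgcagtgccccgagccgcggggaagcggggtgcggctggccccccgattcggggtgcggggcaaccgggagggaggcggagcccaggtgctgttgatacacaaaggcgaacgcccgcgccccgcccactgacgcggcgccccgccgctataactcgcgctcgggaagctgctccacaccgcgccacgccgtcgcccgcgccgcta
Slc16a3: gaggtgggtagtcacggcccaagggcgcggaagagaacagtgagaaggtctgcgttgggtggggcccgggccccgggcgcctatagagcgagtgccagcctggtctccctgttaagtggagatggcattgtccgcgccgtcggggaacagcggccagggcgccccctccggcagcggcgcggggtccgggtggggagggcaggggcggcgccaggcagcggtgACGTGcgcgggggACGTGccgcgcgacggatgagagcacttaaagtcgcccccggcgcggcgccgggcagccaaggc
The search covered TGATGNAA (the amino acid response element bound by ATF4) and ACGTG, on both strands. The Slc38a2 window held neither and the Slc16a3 window held ACGTG at more than 1 place. RefSeq windows were found for 109 members, 146 windows in all. ACGTG was in 28.8% of the members' windows and 19.6% of all 32817 windows, and TGATGNAA in 1.37 and 3.97%. These are matches of letters in this window only.

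Slc7a1 (chr5, 148327410 to 148399904), an importer of arginine and lysine, was almost absent with oil, at 0, 2.5, 7.14, 0 and 2.87 CPM. It was at 11.3, 38.3, 33.4, 14.3 and 138 CPM in wild-type mice with CCl4 and at 16.0, 19.6, 24.3, 16.3 and 0 CPM in Trem1-deficient mice. The wild-type groups did not overlap, and wild-type CCl4 mouse 5 was far above the rest. Its log2 fold change was 4.15 ± 1.24 (edgeR adjusted p 0.0467), and 3.17 with an adjusted p of 0.163 without that mouse; 2 of 10 fits that left out 1 mouse kept the call. Slc7a5 (chr8, 121881150 to 121907694), the light chain that imports leucine with Slc3a2, was at 7.51 to 14.3 CPM with oil, 35.3 to 87.2 after CCl4 in wild type and 28.1 to 39 in Trem1-deficient mice. Both CCl4 groups lay wholly above the oil mice. In wild type the log2 fold change was 2.27 ± 0.72 with an edgeR adjusted p of 0.0612, which missed the threshold. Slc3a2 itself had a log2 fold change of 0.19 ± 0.31 (edgeR adjusted p 0.81), and Slc7a8, another partner, one of -0.20 ± 0.44 (0.869). Of the 5 members on a list of amino acid carriers known as ATF4 targets, 2 were called higher and 0 lower, beside the 3.04% of all genes called higher. Their median log2 fold change, 1.72 against 0.06 for all genes tested, is the value of Slc38a2 itself. The fifth of them, Slc1a5, a glutamine importer, had one of -0.67 (edgeR adjusted p 0.859), 5.42 (0.0506) without oil mouse 2, which was at 139 CPM, and 5.69 (0.0256) without that mouse and wild-type CCl4 mouse 5.

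In the amino acid families as a whole 2 of 22 members were called higher and 0 lower, with a median of -0.18. Slc1a3, a glutamate importer of macrophages and glia, was at 0 to 27.2 CPM with oil and at 0 to 3.32 CPM in wild-type mice with CCl4, a log2 fold change of -3.86 ± 1.28 (edgeR adjusted p 0.0757). Slc7a2 spanned 26.3 to 467 CPM with oil and 52.5 to 645 CPM after CCl4, with oil mouse 2 and wild-type CCl4 mouse 5 at the top. Slc43a2 was at 218 ± 39 CPM with oil and 156 ± 33.3 CPM after CCl4 (log2 fold change -0.48 ± 0.34, edgeR adjusted p 0.492).

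Slc27a5 (chr7, 12988346 to 12998192) encodes an enzyme of hepatocytes that activates bile acids and very long chain fatty acids. It was at 16.9, 0, 9.29, 4.80 and 6.69 CPM with oil, at 18.6, 89.6, 25.8, 37.2 and 223 CPM after CCl4 in wild type and at 8.69, 6.44, 19.1, 31.0 and 102 CPM in Trem1-deficient mice. The nearest mice of the wild-type groups were at 16.9 and 18.6 CPM. Slc27a5 had a log2 fold change of 3.35 ± 0.97 (edgeR adjusted p 0.0389), and 2.45 (0.146) without wild-type CCl4 mouse 5; it passed in 4 of 10 fits that left out 1 mouse. It was 0.83 (0.89) with the hepatocyte marker sum as a covariate and 0.62 (adjusted p 1) with the index series as a term. Slc27a2, a fatty acid importer and acyl-CoA synthetase of hepatocytes, was at 2.88 to 68.9 CPM with oil and 58.5 to 577 CPM after CCl4 (log2 fold change 2.5 ± 0.87, edgeR adjusted p 0.103). The bile acid, organic ion and fatty acid families had 1 of 9 members called higher and a median of 0.39. Slc10a1, the main bile acid importer of hepatocytes, was at 20.4 ± 21.0 CPM with oil and 13.5 ± 26.4 after CCl4.

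Of the carriers of metals 1 of 20 was called higher and 0 lower, with a median log2 fold change of 0.30. Slc39a7 (chr17, 34028269 to 34031682) was at 190, 151, 258, 180 and 209 CPM with oil and at 565, 266, 372, 208 and 674 CPM after CCl4, so that wild-type CCl4 mouse 4 lay within the oil range. In Trem1-deficient mice it was at 274, 330, 368, 432 and 431 CPM, all above the oil mice. The log2 fold change in wild type was 1.07 ± 0.32 (edgeR adjusted p 0.0492), and the call held in 2 of 10 fits that left out 1 mouse, with adjusted p from 0.0199 to 0.127. An exon of Slc39a7 overlaps another annotated gene on the same strand. The copper importer Slc31a1 and the zinc importer Slc39a1 had log2 fold changes of 0.35 ± 0.53 (edgeR adjusted p 0.794) and 0.18 ± 0.46 (0.886).

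Of the mitochondrial carriers 1 of 25 was called higher and 1 lower, with a median of -0.19. Slc25a37 (chr14, 69241848 to 69285112), known as mitoferrin-1, was at 77.0, 45.1, 20.0, 28.8 and 56.4 CPM with oil and at 95.7, 74.5, 106, 155 and 273 CPM after CCl4 in wild type. In Trem1-deficient mice it was at 106, 90.8, 97.4, 102 and 139 CPM, all above the oil mice. Only the highest oil mouse reached the lowest wild-type CCl4 mouse. For Slc25a37 the log2 fold change was 1.63 ± 0.49 (edgeR adjusted p 0.0467), and 1.22 (0.105) without wild-type CCl4 mouse 5; the call held in 3 of 10 fits that left out 1 mouse. Its exons overlap annotated genes on the opposite strand. Slc25a45 (chr19, 5877808 to 5885878) was at 58.2, 163, 102, 110 and 69.3 CPM with oil and at 18.6, 22.1, 33.4, 21.8 and 4.15 CPM after CCl4, with no overlap. Trem1-deficient mice, at 31.1, 84.7, 57.8, 31.8 and 52.7 CPM, overlapped both groups, and their mean of 51.6 CPM lay between the other means. In wild type the log2 fold change was -2.31 ± 0.62 (edgeR adjusted p 0.0248), and it passed in 8 of 10 fits that left out 1 mouse, with adjusted p of 0.0635 and 0.0663 without oil mice 3 and 4. Slc25a4 and Slc25a5, the exchangers of ADP and ATP, had log2 fold changes of -0.27 (edgeR adjusted p 0.874) and 1.20 (0.285).

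**Figure D2:**
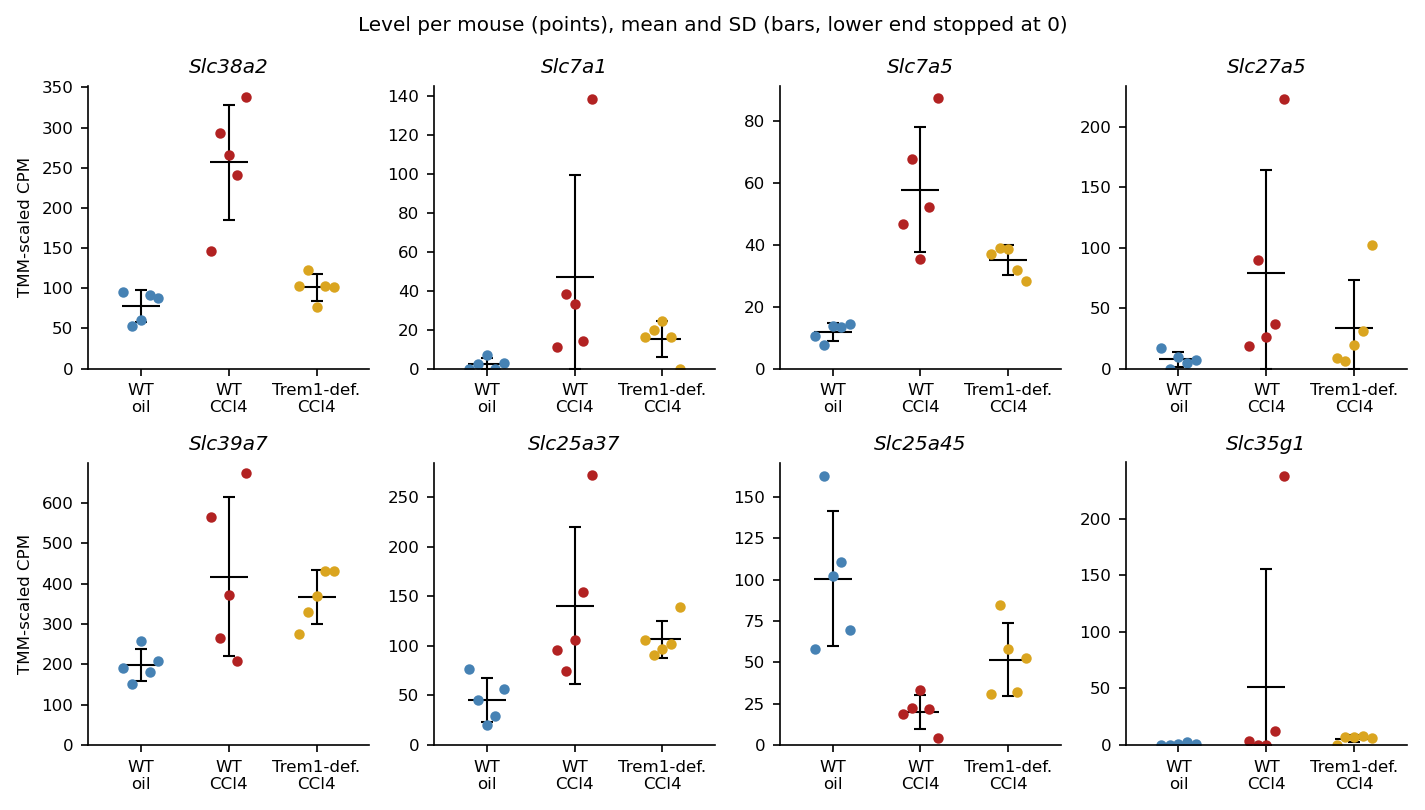
TMM-scaled CPM per mouse (points) with group mean and SD (bars; lower end stopped at 0) of the 7 members called after CCl4 in wild-type mice and of Slc7a5, which missed the threshold. Slc38a2 in the wild-type CCl4 mice, 146 to 338 CPM, lies above both other groups, while Slc35g1 is high in 1 mouse alone, at 238 CPM.

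In the Slc35 family, most of whose members carry nucleotide sugars, 1 of 15 was called higher. This was Slc35g1 (chr19, 38395980 to 38405610), with 0, 0, 1, 3 and 1 counts in the oil mice. In wild-type mice with CCl4 it had 6, 0, 0, 22 and 172 counts, and in Trem1-deficient mice 0, 20, 16, 10 and 11. The call (log2 fold change 5.83 ± 1.68, edgeR adjusted p 0.0386) rested on wild-type CCl4 mouse 5, without which it was 2.25 with an adjusted p of 0.516. Without the wild-type CCl4 mice Slc35g1 would be under 200 counts and no member, so this call is no support for a change in the family. The other families had no calls: 0 of 15 ion carriers, 0 of 11 sugar carriers, 0 of 8 nucleoside, choline and vitamin carriers, 0 of 7 Slc16 members and 0 of 5 peptide and lysosomal carriers, against 4, 3, 2, 3 and 2 of them at an unadjusted p under 0.05 in edgeR. DESeq2 called 16 of the 144 members in either direction, and 11.2% of all genes.

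Whole groups stood apart in some members that were not called. The wild-type groups did not overlap in 5 members that were higher after CCl4 and 5 that were lower, against 3.13 and 3.44% of all genes, which is again near the background. Higher were Slc38a2, Slc7a1, Slc7a5, Slc27a5 and Slc4a4, a sodium bicarbonate cotransporter, which was at 15.4 to 52.6 CPM with oil and 64.4 to 152 after CCl4. Lower were Slc25a45, the urate carrier Slc2a9, the mitochondrial sodium calcium exchanger Slc8b1, Slc16a9 and the nucleoside carrier Slc29a1. Slc2a9 was at 98.0 ± 21.2 CPM with oil and 22.0 ± 24.8 after CCl4 (log2 fold change -2.15 ± 0.79, edgeR adjusted p 0.116). Slc29a1 was at 112 to 142 CPM with oil and 12.1 to 111 after CCl4.

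**Figure D3:**
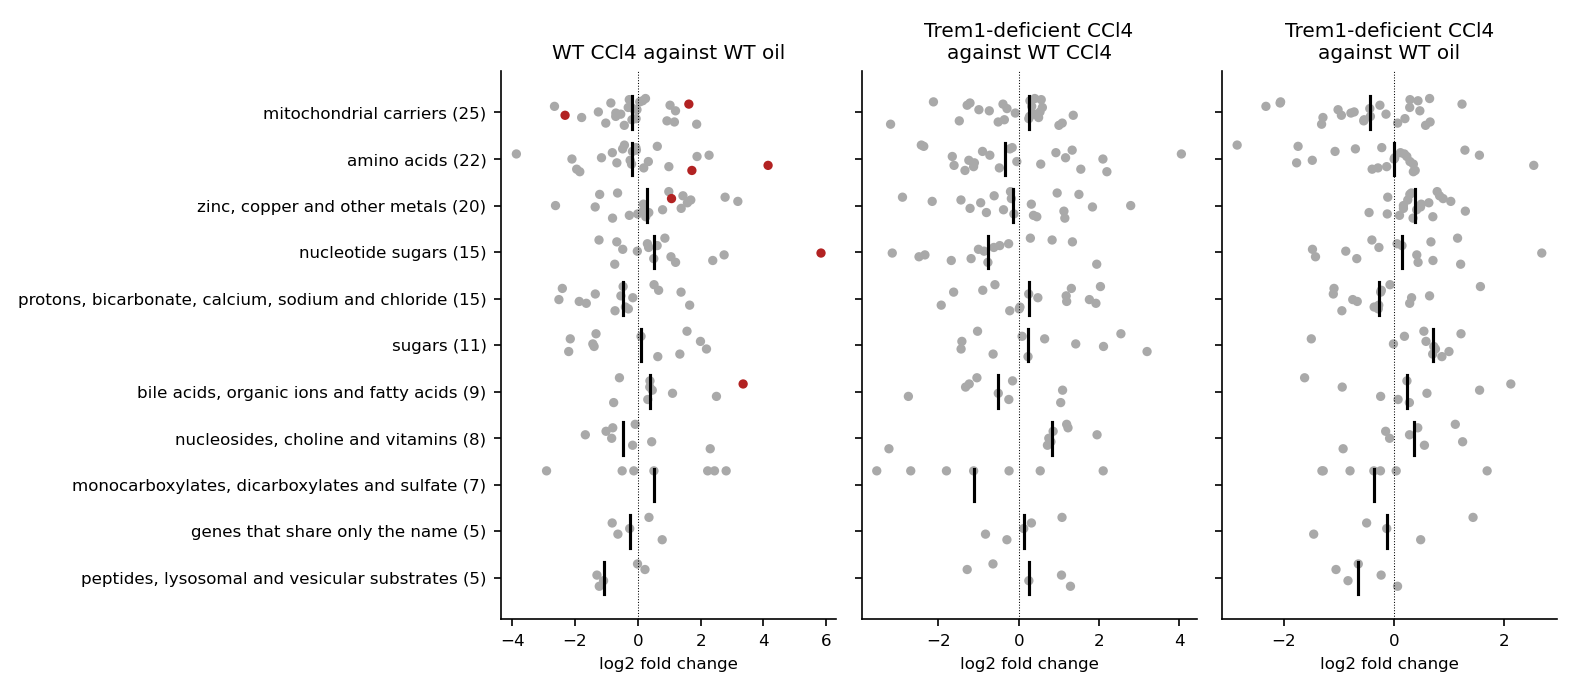
Log2 fold change of each member (points) by family group in the 3 comparisons, for groups with 5 members or more (number in brackets), with the median as a bar. Points called by edgeR are red: 7 in all, each for wild-type CCl4 against oil, and the medians of the groups lie between -1.12 and 0.83.

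The second comparison asked how the carriers of Trem1-deficient mice differed from those of wild-type mice after CCl4. These groups differ in part in index series and sex-linked counts as well, because Trem1-deficient mice 1 and 2 are in series A. No member was called in either direction, against 0.778% of all genes called higher and 1.28% lower, and 24 members had an unadjusted p under 0.05 in edgeR, against 15.2% of all genes. DESeq2 called 2 members higher and 6 lower, and 6.59% of all genes. The members' median log2 fold change was -0.16, against -0.03 for all genes. Groups did not overlap in 5 members that were higher in Trem1-deficient mice and 5 that were lower, against 3.42 and 2.12% of all genes. Leaving out wild-type CCl4 mouse 1 gave 5 calls higher and 4 lower. Leaving out oil mouse 2 and wild-type CCl4 mouse 5 together gave 3 and 2.

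Slc38a2 came nearest to the threshold. Its log2 fold change in Trem1-deficient against wild-type mice was -1.34 ± 0.38 (edgeR adjusted p 0.054), with all 5 Trem1-deficient mice below all 5 wild-type mice. Slc16a3 came near it as well. It was at 46.0, 123, 9.29, 3.84 and 33.0 CPM with oil, at 41.9, 127, 296, 392 and 300 CPM in wild-type mice with CCl4 and at 74.8, 43.0, 31.7, 21.2 and 7.03 CPM in Trem1-deficient mice. The 3 highest mice were wild-type CCl4 mice 3, 4 and 5, and mouse 1 of that group lay among the others. The log2 fold change was 2.44 ± 0.74 for CCl4 in wild type (edgeR adjusted p 0.0557) and -2.69 ± 0.75 for Trem1-deficient against wild type (0.0568). Both comparisons share the wild-type CCl4 mice. Among the mice of index series B alone, 3 Trem1-deficient against 5 wild type, the value was -3.50 with an edgeR adjusted p of 0.0208.

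Slc1a2, a glutamate importer of hepatocytes and astrocytes, was low in the Trem1-deficient mice against both other groups. It was at 107, 60.1, 75.7, 86.4 and 35.4 CPM with oil, at 16.6, 52.4, 55.4, 87.6 and 59.5 CPM after CCl4 in wild type and at 6.01, 12.9, 16.1, 12.2 and 2.93 CPM in Trem1-deficient mice, below all 10 others. The log2 fold change was -2.43 ± 0.70 against wild-type CCl4 (edgeR adjusted p 0.0603) and -2.85 ± 0.71 against oil (0.101). Against oil it passed in DESeq2, in the fit of those 2 groups alone and with oil mouse 2 and wild-type CCl4 mouse 5 left out. An annotated gene overlaps it on the opposite strand. Slc19a2, a thiamine importer, was at 0 to 15.2 CPM in Trem1-deficient mice and 15.3 to 137 CPM in wild-type mice with CCl4 (log2 fold change -3.23 ± 1.07, edgeR adjusted p 0.112); without the wild-type CCl4 mice it would be under 200 counts and no member.

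In Slc4a4, too, all Trem1-deficient mice, at 0 to 53.3 CPM, lay below the wild-type CCl4 mice, at 64.4 to 152 CPM (log2 fold change -1.93 ± 0.79, edgeR adjusted p 0.225). Higher in all Trem1-deficient mice were Slc1a3, Slc29a3 (a lysosomal nucleoside carrier), Slc27a4, Slc9a8 and Slc39a13, of which Slc1a3 and Slc39a13 are members only through the counts of that group. Slc29a3 was at 72.7 to 134 CPM in Trem1-deficient mice and 4.15 to 65.8 CPM in wild-type mice with CCl4 (log2 fold change 1.95 ± 0.71, edgeR adjusted p 0.159). Slc9a8 was at 33.1 to 121 CPM against 0 to 25.9 CPM (2.03, edgeR adjusted p 0.282).

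The third comparison set Trem1-deficient mice after CCl4 against wild-type mice with oil, which differ in both genotype and treatment. Index series and sex-linked counts differed in part too, because Trem1-deficient mice 3, 4 and 5 are in series B and all oil mice in series A. No member was called, against 0.178% of all genes called higher and 0.0555% lower, and 9 members had an unadjusted p under 0.05 in edgeR, against 4.66% of all genes. DESeq2 called 0 higher and 1 lower, and 0.744% of all genes. Groups did not overlap in 4 members that were higher (Slc7a5, Slc25a37, Slc27a4 and Slc39a7) and 3 that were lower (Slc1a2, Slc2a9 and Slc8b1), against 1.63 and 1.27% of all genes. Slc27a4, an acyl-CoA synthetase, was at 4.70 to 35.4 CPM with oil, 1.38 to 34.6 after CCl4 in wild type and 36.9 to 54.9 in Trem1-deficient mice, above all 10 others (log2 fold change against oil 1.55 ± 0.86, edgeR adjusted p 1). Set side by side, Slc7a5, Slc25a37 and Slc39a7 had log2 fold changes against oil of 2.27, 1.63 and 1.07 in wild type and 1.55, 1.23 and 0.89 in Trem1-deficient mice. The oil mice are shared by both.

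Carriers known from macrophages were lower in the wild-type CCl4 preparations in 8 of 9 members by the sign of the log2 fold change. The 9 are Slc15a3, Slc15a4, Slc29a3, Slc37a2, Slc9a9, Slc1a3, Slc36a1, Slc38a9 and Slc16a3, and Slc1a3, Slc36a1, Slc37a2 and Slc38a9 would be under 200 counts without the Trem1-deficient mice. Of the 9, 0 were called and 6 had an unadjusted p under 0.05 in edgeR. Slc16a3, which was higher, is among these 6. Of all genes, 19% had such a p and 51.7% had a positive fold change. The median of the 9 was -1.67, against 0.06 for all genes tested. In Trem1-deficient against wild-type mice 8 of 9 were positive, with 0 called and a median of 1.95 against -0.03. The exception in both was Slc16a3. For Slc1a3, Slc36a1, Slc37a2 and Slc38a9 the choice by counts favoured a higher level in Trem1-deficient mice, so their signs are no support. The members that did not enter that way, Slc15a3, Slc15a4, Slc9a9, Slc29a3 and Slc16a3, had log2 fold changes of 1.06, 1.29, 1.76, 1.95 and -2.69. The endosomal proton exchanger Slc9a9 was at 23.8 to 133 CPM with oil, 0 to 46.5 in wild-type mice with CCl4 and 24.5 to 87.9 in Trem1-deficient mice. In wild type its log2 fold change was -2.51 ± 0.92 (edgeR adjusted p 0.118). Slc15a4 was at 107 to 240, 41.0 to 116 and 108 to 273 CPM, with log2 fold changes of -1.23 ± 0.41 (edgeR adjusted p 0.0776) and 1.29 ± 0.41 (0.0955).

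Slc15a3 was at 1056, 189, 888, 1035 and 678 CPM with oil, at 757, 171, 385, 180 and 66.4 CPM after CCl4 in wild type and at 556, 579, 611, 797 and 724 CPM in Trem1-deficient mice. Oil mouse 2 was as low as the CCl4 mice, and wild-type CCl4 mouse 1 as high as the oil mice. Slc15a3 had a log2 fold change of -1.30 ± 0.49 (edgeR adjusted p 0.144), and -1.34 (0.0199) with oil mouse 2 and wild-type CCl4 mouse 5 left out. Exons of Slc15a3 overlap Tmem132a on the opposite strand, and whether the counting used the strand is not stated in the sources used here. The summed level of these 9 carriers was 630 CPM in oil mouse 2 and 1231 to 1489 CPM in the other 4 oil mice. It was 425 to 1059 CPM after CCl4 in wild type and 984 to 1256 CPM in Trem1-deficient mice. The Kupffer cell marker sum was lowest of the oil group in oil mouse 2, 34009 CPM, and highest of its group in wild-type CCl4 mouse 1, 22449 CPM. Wild-type CCl4 mouse 1 had a carrier sum of 1059 CPM, above oil mouse 2, with the lower marker sum of the pair, and wild-type CCl4 mouse 2 had the lowest carrier sum of its group, 425 CPM, at a marker sum of 12418 CPM. Their part in the result was not tested.

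**Figure D4:**
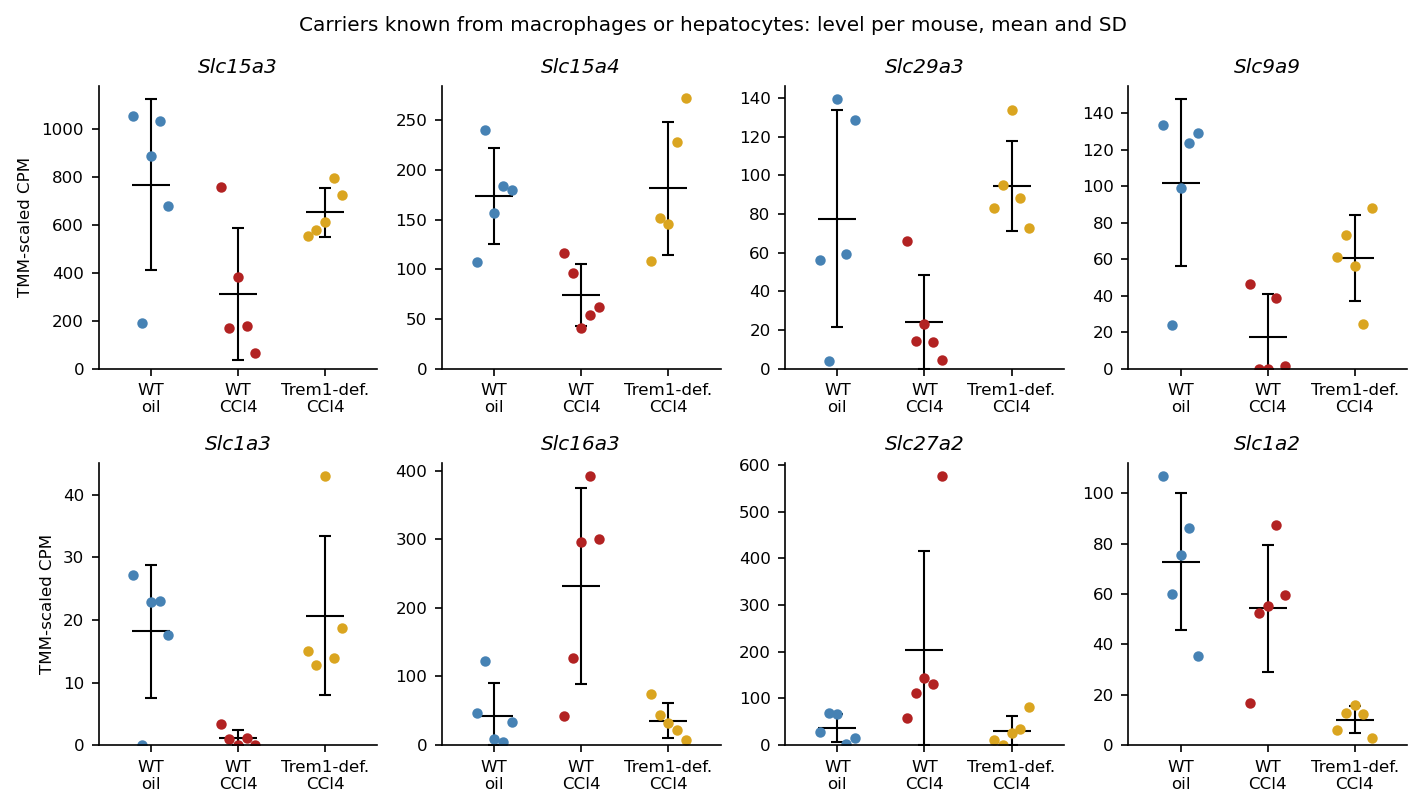
TMM-scaled CPM per mouse (points) with group mean and SD (bars; lower end stopped at 0) of 6 carriers known from macrophages and of Slc27a2 and Slc1a2, known from hepatocytes. Slc29a3 in Trem1-deficient mice, 72.7 to 134 CPM, lies above the wild-type CCl4 mice, and Slc1a2, 2.93 to 16.1 CPM, below both other groups.

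Carriers known from hepatocytes did not move one way. Of 19 such members 1 was called higher after CCl4 in wild type (Slc27a5), 9 were positive and 10 negative, and the median was -0.03. With 1 mouse left out at a time, the log2 fold change of Slc38a4 ranged from -0.54 to 1.06. That of Slc25a47 ranged from -1.11 to 0.57, so the count of signs depends on single mice. In Trem1-deficient mice 16 of 19 were negative against wild type after CCl4 and 14 of 19 against oil, with medians of -1.12 and -1.02 against -0.03 and 0.02 for all genes and 0 called in either. Their summed level was 403 to 669 CPM in 4 oil mice and 2113 CPM in oil mouse 2. It was 548 to 1836 CPM after CCl4 in wild type and 213 to 678 CPM in Trem1-deficient mice. Within the Trem1-deficient group the carrier sums split by index series, with 213 and 219 CPM in mice 1 and 2 (series A) and 379, 576 and 678 CPM in mice 3, 4 and 5 (series B), and so did the hepatocyte marker sums, at 2093 to 3145 and 7400 to 19529 CPM. Oil mouse 2 had the highest hepatocyte marker sum of the oil mice, 16338 CPM. Trem1-deficient mouse 5 had a hepatocyte marker sum of 19529 CPM and a carrier sum of 678 CPM. The part of these markers in the result was not tested. In oil mouse 2 the level of Slc38a4, an amino acid importer, was 300.5 CPM, that of Slc25a47, a mitochondrial carrier of liver, 310.5 CPM and that of Slc25a10, the dicarboxylate carrier, 233 CPM. The highest of the other oil mice had 46.4, 62.0 and 51.7 CPM of these.

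**Figure D5:**
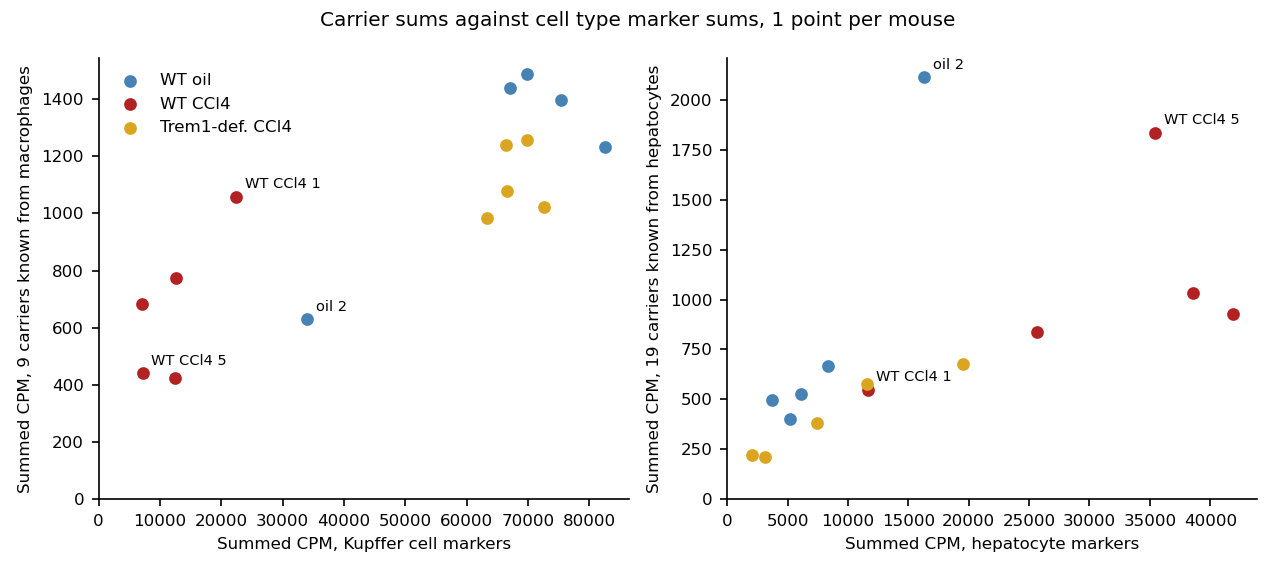
Summed CPM of carriers known from macrophages against Kupffer cell markers (left) and of carriers known from hepatocytes against hepatocyte markers (right), 1 point per mouse and 5 mice per group. Carrier sums are TMM-scaled and marker sums are not. Oil mouse 2 lies apart from the other oil mice in both, at 34009 and 630 CPM on the left and 16338 and 2113 CPM on the right.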

How the data were processed

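Per the file headers and labels, the authors deposited 1 table of raw counts of reads per gene, 1 column per mouse, from 3' tag libraries (Lexogen QuantSeq) sequenced on 4 lanes. The submitters' processing notes list Trimmomatic, STAR 2.5.1a, Partek 6.6 and mm10 without their roles. Gene annotation and strand setting are not stated in these sources, and no molecular identifiers are mentioned, so floors cover counting error only. Of the 144 members, 46 share exon sequence with another gene in GENCODE M21 on GRCm38, in which all 144 were found by name.

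The 4 tallies of reads outside genes were left out. Counts were tested on the whole table with edgeR 4.0.16 in R 4.3.3 (TMM, filterByExpr, robust quasi-likelihood fit of all 3 groups, 12 residual degrees of freedom), with Benjamini-Hochberg adjustment over 9001 genes. The labels number the mice of a group, so the p-values rest on the variation among mice. SE is the log2 fold change divided by the root of F. Levels of members and of Trem1, and sums over lists of members, are TMM-scaled CPM. Sums over cell markers are CPM without that scaling. Libraries of 1 group always differed beyond counting noise (smallest chi-square divided by its degrees of freedom 10.2). The test code was tested on simulated data. DESeq2 1.42.0 was an alternative.

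The members and lists were chosen with earlier results of these data known. Text names members that were called, the 12 highest, the 3 highest of each family group, Slc3a2 and its partners and the members at the limit of 200 counts; Slc1a3, Slc1a2, Slc19a2, Slc25a47, Slc25a10, Slc25a4, Slc25a5, Slc10a1, Slc1a5, Slc36a1, Slc38a9, Slc16a9, Slc8b1, Slc9a8, Slc39a13, Slc37a2 and Slc38a4 were added after their values were seen, and so was the group of 5 genes that share only the name. An item among the members is not reported here by name.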

Additional observations from a re-analysis of the deposited data

Results flagged for a closer look

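For each member with values in the text and each group, the highest or lowest of 5 mice was compared with the other 4 by Dixon's criterion (a gap to the nearest mouse above 0.71 of the range). This marked 23 of 186 groups of values, 12.4%. Of these, 8 belong to the 17 members that were named after their values were seen, so the share is not one of members picked without regard to their values. The criterion marks about 1 in 20 groups by chance where values are normally distributed, which levels near 0 CPM are not. In 22 of them 1 mouse was high. Oil mouse 2 gave 9 and wild-type CCl4 mouse 5 gave 5, and the other 9 came from 8 mice. Oil mouse 2 and wild-type CCl4 mouse 5 also had the lowest library totals of all mice, 892498 and 812320 counts. The part of this depth in the flagged values was not tested.

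Oil mouse 2 was high in Slc25a3 at 721 CPM, Slc7a2 at 467 CPM, Slc9a3r2 at 249 CPM, Slc16a10 at 136 CPM, Slc31a1 at 218 CPM, Slc25a47 at 310.5 CPM, Slc25a10 at 233 CPM, Slc38a4 at 300.5 CPM and Slc1a5 at 139 CPM. Of these, Slc7a2, Slc16a10, Slc25a47 and Slc38a4 are on the list of carriers known from hepatocytes, which holds 19 of the 144 members. This mouse had the highest hepatocyte marker sum of the oil mice, 16338 CPM. The part of hepatocytes in these values was not tested.

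Wild-type CCl4 mouse 5 was high in Slc35g1 at 238 CPM (next mouse 12.6 CPM), Slc7a1 at 138 CPM, Slc7a2 at 645 CPM, Slc27a2 at 577 CPM and Slc25a36 at 137 CPM. Wild-type CCl4 mouse 4 was high in Slc25a10 at 36.6 CPM and mouse 2 in Slc10a1 at 60.4 CPM. Oil mouse 1 was high in Slc5a3, the myo-inositol importer, at 40.4 CPM and in Slc26a11 at 50.7 CPM, and oil mouse 4 in Slc35g1 at 2.88 CPM, which is 3 counts. Trem1-deficient mouse 5 was high in Slc27a5 at 102 CPM mouse 3 in Slc1a3 at 43.0 CPM and mouse 4 in Slc36a1 at 42.4 CPM, while mouse 1 had 0 CPM of Slc35g1, where the next mouse had 6.44 CPM.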

How the results depend on the processing

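For CCl4 against oil in wild type, the 6 members called higher and 1 lower became 6 and 1 with RLE scaling (the same 7), 9 and 7 with DESeq2, 7 and 3 without a filter, 1 and 0 in the fit of the 2 groups alone, 0 and 0 with the index series as a term, 0 and 0 with the hepatocyte marker sum as a covariate, and 3 and 5 with oil mouse 2 and wild-type CCl4 mouse 5 left out, an alternative chosen after seeing the data. Leaving out 1 mouse at a time gave 1 to 6 higher and 0 to 7 lower. The series term rests on the Trem1-deficient group alone, so it cannot separate CCl4 from the series here. For Trem1-deficient against wild-type mice after CCl4, the 0 and 0 became 0 and 3 with RLE scaling, 2 and 6 with DESeq2, 1 and 3 without a filter, 0 and 1 in the fit of the 2 groups alone, 0 and 1 in the shared index series, 3 and 2 without those 2 mice, and 0 to 5 higher and 0 to 4 lower leaving out 1 mouse at a time. For Trem1-deficient mice against oil, 1 member was called lower with DESeq2, with the 2 groups alone and without those 2 mice, and 0 with each mouse left out in turn. With the 2 groups alone or 1 series fewer genes or samples enter; otherwise the cause was not tested. None of the 7 called members changed sign under these alternatives; Slc1a5, not called at -0.67, was called at 5.69 without those 2 mice.

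With the mouse number as a replicate block, 1 member (Slc38a2) was called higher and 1 (Slc25a45) lower after CCl4 in wild type, and 0 in the other comparisons. Same-numbered mice did not deviate together (correlations from -0.0577 to 0.0411, and not every mouse correlated best with its own number), so they share only a number. At 3 counts a library cannot show levels under 1.16 to 3.69 CPM, and the common biological coefficient of variation was 0.888, a spread among mice that widens the intervals of all members.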
